A study of Mus musculus with 8 samples.

Results

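The adult globin genes are the 2 alpha genes Hba-a1 and Hba-a2 and the 2 beta genes Hbb-bs and Hbb-bt, read here in every library of a study of mouse blood. They were picked out by gene name, and that choice was made with earlier results of these data known. Of the 5 genes that the choice names, 4 are analysed here, out of 56748 genes in the count table. The mice were male C57BL/6J animals of genotype wt, 8 weeks old, kept on a standard diet, and received saline or fucoidan by mouth through a gavage tube every day for 1 month. Fucoidan, a sulphated polysaccharide of the brown seaweed Undaria pinnatifida, was given at 200 mg per kg. Mononuclear cells were taken from heart blood on a density gradient, and poly(A) RNA was sequenced from 5 saline and 3 fucoidan libraries. A treatment note attached to the fucoidan libraries speaks of saline; grouping here used the titles, which name fucoidan. Each library is titled as a biological replicate, and since nothing says how animals map to libraries, p-values measure the spread between these libraries.

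Adult haemoglobin carries oxygen as a tetramer of a pair of alpha and a pair of beta chains, each holding 1 haem group. Red cells transcribe their globin genes while they still have a nucleus. The young red cells that leave the marrow, the reticulocytes, keep globin mRNA for a short time after losing the nucleus. Mononuclear cell preparations are meant to leave most red cells behind. In RNA pooled from many cells, more cells of a type and more RNA per cell cannot be told apart.

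All 4 genes lie in 2 clusters of the GRCm39 genome, and none overlaps another gene of the count table. Hba-a1 (ENSMUSG00000069919, chromosome 11, 32233511 to 32234465, plus strand) and Hba-a2 (ENSMUSG00000069917, chromosome 11, 32246489 to 32247298, plus strand) each encode the adult alpha chain. Hbb-bs (ENSMUSG00000052305, chromosome 7, 103475741 to 103477303, minus strand) and Hbb-bt (ENSMUSG00000073940, chromosome 7, 103461731 to 103463203, minus strand) each encode the adult beta chain. Within each pair the coding sequences of the GENCODE M21 transcripts (GRCm38) differed at 1 base, of 429 for alpha and of 444 for beta, an identity of 99.77% in both pairs. The stretches of exon 3 around that base are shown, with the differing base in capitals, as the only place where the coding sequences of a pair differ. Differences outside the coding sequence are not shown and also bear on how far reads can be given to 1 copy.
Hba-a1, chr11:32284313-32284373, plus strand: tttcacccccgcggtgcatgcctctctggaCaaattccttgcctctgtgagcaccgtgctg
Hba-a2, chr11:32297130-32297190, plus strand: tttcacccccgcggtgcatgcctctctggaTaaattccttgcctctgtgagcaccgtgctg
Hbb-bs, chr7:103826665-103826722, minus strand: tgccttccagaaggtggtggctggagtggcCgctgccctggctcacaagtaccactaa
Hbb-bt, chr7:103812656-103812713, minus strand: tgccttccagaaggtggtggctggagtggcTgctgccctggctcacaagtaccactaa
Counted from the first base of the start codon, the differences are C381T from Hba-a1 to Hba-a2 and C417T from Hbb-bs to Hbb-bt. Of all 150-base windows of the Hba-a2 transcript, 65.7% also occurred in that of Hba-a1, and 48.4% the other way. For the beta pair 58.7% of the windows of Hbb-bs occurred in Hbb-bt and 50.7% the other way. Each fragment had 2 reads of 150 bases, and a window stands for 1 read, so the other read of a fragment may still tell the copies apart. The transcripts of Hba-a1 and Hba-a2 used for these windows have 699 and 554 bases, against gene lengths of 812 and 667 with the counts. The sources used here do not say how reads that match both copies were counted, so each pair is also given summed, and values of a single copy are uncertain to that extent.

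The sequences before the 4 genes are shown as a description, and whether they bear on the shared rise was not tested. They are the 250 bases upstream of each RefSeq start (GRCm38.p6), with matches to 4 short motifs of globin promoters in capitals. The motifs, searched on both strands, were the TATA box with the letters TATAA, the CCAAT box, the CACCC box named by its own letters, and the erythroid motif GATA, and no match overlapped one of another motif.
Hba-a1, chr11:32283422-32283671, plus strand: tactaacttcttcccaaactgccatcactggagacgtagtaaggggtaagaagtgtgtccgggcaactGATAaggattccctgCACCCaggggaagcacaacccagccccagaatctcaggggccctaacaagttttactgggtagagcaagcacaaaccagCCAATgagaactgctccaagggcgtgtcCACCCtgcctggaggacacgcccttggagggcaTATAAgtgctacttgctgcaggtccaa
Hba-a2, chr11:32296242-32296491, plus strand: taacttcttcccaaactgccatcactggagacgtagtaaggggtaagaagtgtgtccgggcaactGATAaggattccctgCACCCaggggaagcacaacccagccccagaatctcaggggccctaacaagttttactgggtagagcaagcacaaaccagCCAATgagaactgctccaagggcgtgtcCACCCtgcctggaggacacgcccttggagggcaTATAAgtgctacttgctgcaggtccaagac
Hbb-bs, chr7:103827929-103828178, minus strand: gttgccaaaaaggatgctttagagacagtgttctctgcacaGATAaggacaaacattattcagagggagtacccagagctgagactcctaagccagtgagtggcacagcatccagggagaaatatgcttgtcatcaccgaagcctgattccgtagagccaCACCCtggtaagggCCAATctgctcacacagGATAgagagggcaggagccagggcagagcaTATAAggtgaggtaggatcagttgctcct
Hbb-bt, chr7:103813924-103814173, minus strand: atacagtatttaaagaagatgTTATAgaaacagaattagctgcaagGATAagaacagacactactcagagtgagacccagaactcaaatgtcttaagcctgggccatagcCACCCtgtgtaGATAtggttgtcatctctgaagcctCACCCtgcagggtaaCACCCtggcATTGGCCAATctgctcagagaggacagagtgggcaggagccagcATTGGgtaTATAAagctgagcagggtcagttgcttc
The 2 alpha sequences share a run of 247 identical bases, whereas the longest run shared by the 2 beta sequences is 14 bases. Each of the 4 held all 4 motifs, as did 2.15% of the 32851 RefSeq sequences of this length. Taken singly, TATAA was present in 22.8% of these sequences, CCAAT in 33.8%, CACCC in 52% and GATA in 53.6%. In all 4 genes a TATAA began 27 to 30 bases before the start and a CCAAT 75 to 91 bases before it. Hbb-bt also held TATAA once and CCAAT in 2 further places on the opposite strand, 1 of which abuts its forward CCAAT. A match of letters is a description and not evidence of a bound factor.

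**Figure D1:**
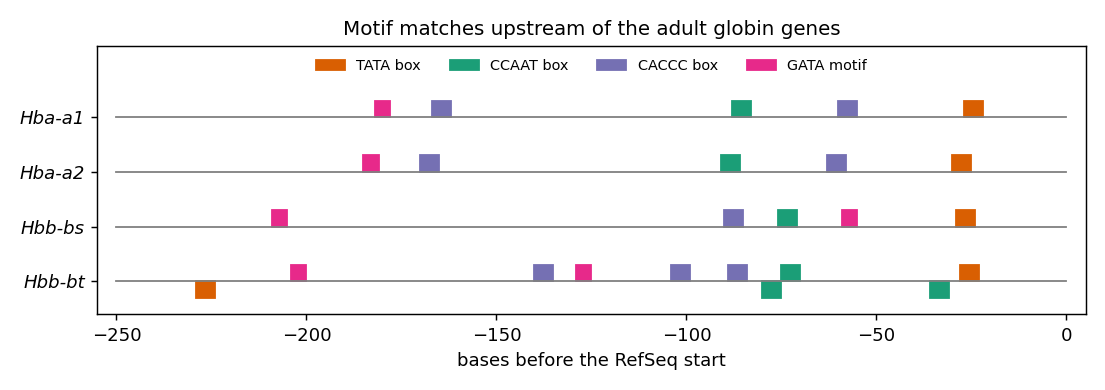
Positions of the 4 motifs in the 250 bases before the RefSeq start of each adult globin gene, in bases before the start; boxes above the line match the coding strand and boxes below it the opposite strand. The 2 alpha genes have the same pattern shifted by 3 bases, and every gene has a TATA box 27 to 30 bases before the start.

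Every adult globin transcript was higher after fucoidan, and no fucoidan library fell to the level of any saline library. Levels are CPM, the counts of a gene relative to all counts of its library, scaled between libraries with TMM factors. Hba-a1 stood at 23503, 16244, 39881, 19470 and 13581 CPM in saline replicates 1 to 5. In fucoidan replicates 1 to 3 it stood at 71508, 62218 and 171306 CPM. Saline replicate 3 was the highest of its group and fucoidan replicate 3 the highest of all, and the groups did not overlap. Hba-a1 rose 4.51-fold (log2 2.17, SE 0.388, adjusted p = 0.00522, edgeR's quasi-likelihood test with Benjamini-Hochberg adjustment over all genes tested).

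Hba-a2, the less abundant alpha copy, measured 2114, 1513, 2168, 1400 and 2365 CPM in the saline libraries. It measured 13222, 6436 and 27401 CPM in the fucoidan libraries. Its saline values lay close together, with replicate 5 rather than replicate 3 the highest, while its fucoidan values lay far apart, replicate 2 being the lowest and replicate 3 the highest. The groups did not overlap. Hba-a2 rose 8.20-fold (log2 3.04, SE 0.367, adjusted p = 0.00396 by edgeR), the second largest log2 fold change of the 14723 genes tested. With both alpha copies summed, the rise was log2 2.26 (SE 0.378, adjusted p = 0.00426 by edgeR), from 15946 to 42049 CPM after saline to 68654 to 198707 CPM after fucoidan.

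Hbb-bs, the more abundant beta copy, measured 20482, 16576, 28700, 18370 and 11169 CPM after saline and 54104, 56755 and 110152 CPM after fucoidan. It rose 3.87-fold (log2 1.95, SE 0.306, adjusted p = 0.00396 by edgeR). Hbb-bt measured 5209, 5698, 12457, 4434 and 2985 CPM after saline and 16204, 18235 and 37824 CPM after fucoidan. For Hbb-bt saline replicate 3 stood far above the other saline libraries and came nearest to the fucoidan range, yet neither beta gene had overlapping groups. Hbb-bt rose 3.91-fold (log2 1.97, SE 0.412, adjusted p = 0.0101 by edgeR). With both beta copies summed, the rise was log2 1.96 (SE 0.327, adjusted p = 0.00432 by edgeR).

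All 4 genes were thus called higher, beside 9.11% of all genes tested, and all 4 had no overlap between groups, beside 11.6% of genes with every fucoidan library above every saline library. The median log2 change of all genes tested was -0.04. Fucoidan replicate 3 decided part of this. Without it the log2 changes of Hba-a1, Hba-a2 and Hbb-bs were 1.58, 2.37 and 1.55, all still called, and that of Hbb-bt was 1.49 with an adjusted p of 0.0855 by edgeR. Against the saline mean, Hba-a1 was 3.17-fold, 2.76-fold and 7.60-fold in fucoidan replicates 1 to 3, and Hbb-bs 2.84-fold, 2.98-fold and 5.78-fold.

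**Figure D2:**
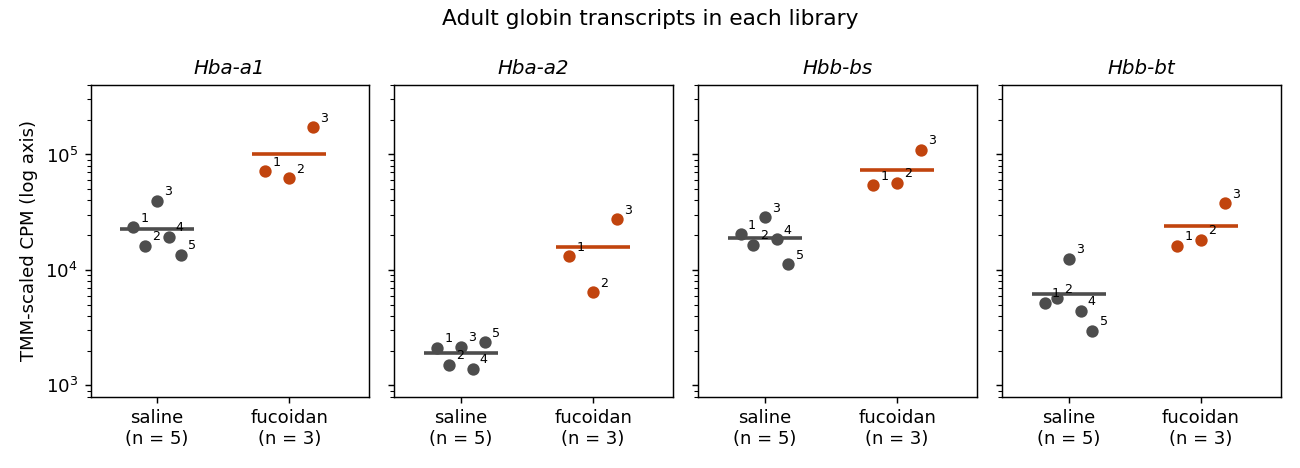
TMM-scaled CPM of each adult globin gene on a log axis, 1 point per library with its replicate number, and a line at the mean of each group. All 3 fucoidan libraries lie above all 5 saline libraries in each panel, and fucoidan replicate 3 is the highest of the 8 in each.

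As a share of all counts in a library, which needs no scaling between libraries, the alpha genes together took 2.66 ± 0.977% (SD, n = 5) in the saline group and 9.35 ± 3.93% (SD, n = 3) in the fucoidan group. The beta genes together took 2.75 ± 0.920% and 7.93 ± 2.07%. Hba-a1 alone took 11.9% of fucoidan replicate 3, and at most 4.06% of any saline library. Hba-a2 went from 0.211 ± 0.0478% (SD, n = 5) to 1.24 ± 0.650% (SD, n = 3). Each of the 7 shares computed, those of the single genes, the pairs and all 4, separated the groups, with an exact two-sided permutation p of 0.0357. That is the smallest p that 56 arrangements allow. Adjustment over the 7 shares left it at 0.0357, as it must where all p-values are equal. The 7 shares are built from the same 4 genes and are not separate results. Library totals ran from 13061703 to 16334932 counts, so the 95% Wilson interval of a library's 4-gene share was at most 0.046 percentage points wide. That interval covers counting error only.

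**Figure D3:**
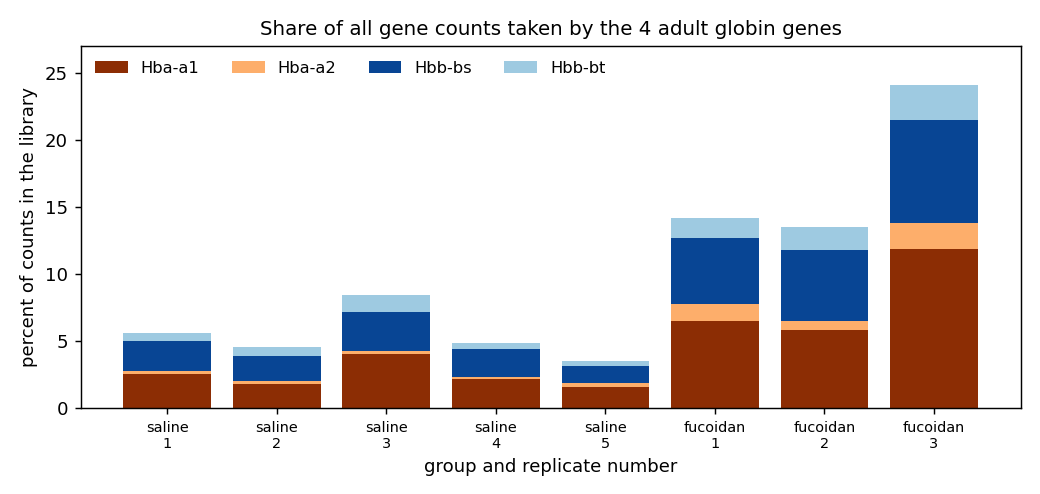
Percent of all gene counts taken by each adult globin gene, stacked, in the 5 saline and 3 fucoidan libraries. The stacks reach 3.51 to 8.48% after saline and 13.5 to 24.1% after fucoidan, with Hba-a1 and Hbb-bs the thickest layers in every library.

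Levels of different genes were compared per length, as CPM per kilobase of gene model. After saline the order was Hba-a1 at 27753 ± 12783 (SD, n = 5), Hbb-bs at 24817 ± 8334, Hbb-bt at 8758 ± 5219 and Hba-a2 at 2867 ± 641.5 CPM per kilobase. Hba-a1 and Hbb-bs did not differ beyond their spread, and they held ranks 1 and 2 of all genes in the table. Hbb-bt held rank 3 and Hba-a2 rank 9. After fucoidan the order was unchanged, at 125218 ± 74481 (SD, n = 3), 95925 ± 41174, 34264 ± 16984 and 23517 ± 16039 CPM per kilobase, and the 4 genes held ranks 1 to 4. There the ranges of Hbb-bt and Hba-a2 overlapped, as did those of Hba-a1 and Hbb-bs. Within each fucoidan library, however, Hbb-bt stood above Hba-a2 and Hba-a1 above Hbb-bs.

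Ratios within a library ask directly whether 1 globin gene changed more than another. The ratio of alpha to beta counts was 0.997, 0.797, 1.02, 0.915 and 1.13 in saline replicates 1 to 5, and 1.21, 0.916 and 1.34 in fucoidan replicates 1 to 3. These ranges overlapped, and the log2 ratio was higher after fucoidan by 0.24 (two-sided exact permutation test, p = 0.214, and 0.429 when adjusted over the 4 ratios). Over the 3 same-numbered pairs of libraries, a value with no test, it was higher by 0.29, and higher in each of the 3 pairs. Leaving out fucoidan replicate 2 gave 0.40 with no overlap (exact permutation p = 0.0952, the smallest that the remaining libraries allow). Fucoidan replicate 2 was the only fucoidan library within the saline range, so leaving it out fixed that lack of overlap. Leaving out fucoidan replicate 3 gave 0.12, and the groups overlapped on leaving out any library but fucoidan replicate 2. Differences between single fucoidan and single saline libraries ran from -0.30 to 0.75.

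Hba-a1 outnumbered Hba-a2 by 11.1, 10.7, 18.4, 13.9 and 5.74 to 1 in the saline libraries, and by 5.41, 9.67 and 6.25 to 1 in the fucoidan libraries. The mean log2 ratio was 3.48 ± 0.621 in the saline group (SD, n = 5) and 2.78 ± 0.436 in the fucoidan group (SD, n = 3). That difference of -0.70 did not pass the test (exact two-sided permutation p = 0.107, adjusted p = 0.429), and saline replicate 5 had a ratio like those of the fucoidan libraries. Without that library the difference was -0.94 and the groups did not overlap, at an exact permutation p of 0.0571. That is the smallest p that the remaining libraries allow. Saline replicate 5 was the only saline library within the fucoidan range, so leaving it out fixed both the lack of overlap and that p. Leaving out any other library left the groups overlapping, with differences of -0.94 to -0.52 (exact permutation p = 0.171 to 0.286). Over the same-numbered pairs the difference was -0.92, lower in each of the 3. Single-library differences ran from -1.77 to 0.75. Hbb-bs outnumbered Hbb-bt by 2.30 to 4.14 to 1 after saline and by 2.91 to 3.34 to 1 after fucoidan. That log2 difference was -0.10 (exact two-sided permutation p = 0.750, adjusted p = 0.750), and 0.07 over the 3 same-numbered pairs of libraries. Single-library differences ran from -0.51 to 0.54.

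The adult globins were also set against the summed counts of 15 other red cell markers, genes of the red cell membrane, its skeleton and erythroid proteins. Most of that sum was Epb41, with 110565 counts over the saline libraries and 190932 over the fucoidan libraries. The next largest, Slc4a1, had 18705 and 38536. There were 37.6, 28.2, 26.7, 23.3 and 24.0 globin counts per marker count after saline, and 28.3, 23.5 and 26.2 after fucoidan. All fucoidan values lay within the saline range. The log2 difference was -0.09 (exact two-sided permutation p = 0.714, adjusted p = 0.750), with single-library differences from -0.68 to 0.28, and 0.03 when saline replicate 1 was left out. Over the same-numbered pairs it was -0.23, lower in each of the 3. With the mean of log2 counts over the 15 markers in place of their sum, which weights them evenly, the difference was -0.12 (exact two-sided permutation p = 0.357).

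**Figure D4:**
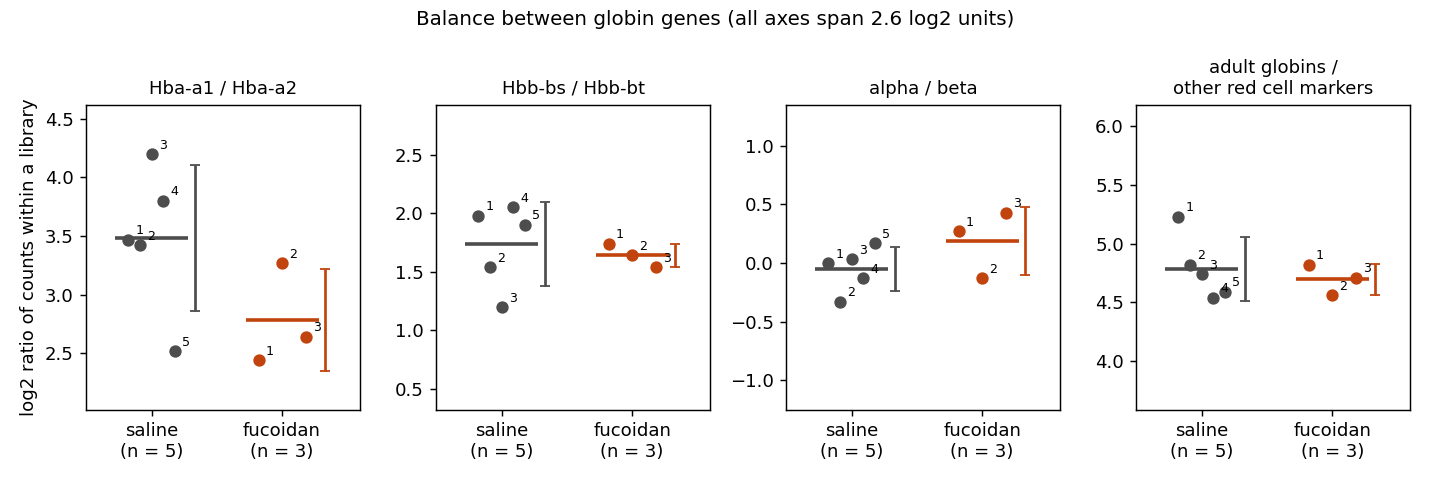
Log2 ratios of counts within each library for the 4 ratios tested, 1 point per library with its replicate number, a line at the group mean and a bar of 1 SD beside it; every axis spans the same number of log2 units. Fucoidan and saline points overlap in all 4 panels, and the ratio of Hba-a1 to Hba-a2 is the most spread among saline libraries.

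The 4 genes also moved together from library to library. Over the 8 libraries Pearson's r of log2 CPM was 0.991 for Hba-a1 with Hbb-bs, 0.976 for Hba-a1 with Hbb-bt and 0.979 for the 2 beta genes. With Hba-a2 it was 0.925 for Hba-a1, 0.909 for Hbb-bs and 0.861 for Hbb-bt. With the group means removed, the values without Hba-a2 were 0.916 to 0.965 and those with it 0.401 to 0.639. These are descriptions over 8 libraries, in which both genes of a pair share the library and its scaling factor, and they carry no test.

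Among 8402 protein-coding genes with a mean of at least 10 CPM, those most like the mean log2 CPM of the 4 globins over the 8 libraries were Fhl1, Ywhah, Rgs18 and Nptn (each r = 0.997) and Bcl2l1 (r = 0.996). Ywhah encodes a 14-3-3 protein, Rgs18 a regulator of G protein signalling known from platelets, Nptn the membrane protein neuroplastin and Bcl2l1 the survival protein Bcl-xL. Their own log2 changes were 1.55, 1.27, 1.46, 1.24 and 1.66, all smaller than that of any adult globin gene. With group means removed the closest were Gatad1 (r = 0.997), Nptn (0.992), Zfand3 (0.991), Ywhah (0.990) and Bin2 (0.989). Likeness was measured over the 8 libraries only and says nothing of shared function.

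Other globin genes were rare. The 2 theta globins, Hbq1b and Hbq1a, lie in the alpha cluster beside Hba-a1 and Hba-a2. Hbq1b (chromosome 11, 32236965 to 32237784) measured 4.94 to 13.15 CPM after saline and 27.3 to 62.5 CPM after fucoidan, and rose by log2 2.35 (SE 0.337, adjusted p = 0.00396 by edgeR). Hbq1a (chromosome 11, 32250069 to 32250873) measured 2.15 to 7.01 and 8.65 to 26.08 CPM, and rose by log2 2.14 (SE 0.400, adjusted p = 0.00604 by edgeR), but was not called with no filter on low counts (0.0599). The embryonic genes were at or near 0. Hbb-y had 18 counts in all saline libraries together and 13 in all fucoidan libraries, Hba-x had 1 and 2, and Hbb-bh1 had none, as did the beta-like gene Hbb-bh2. A count of 0 in a library allows up to 3 counts, or 0.184 to 0.230 CPM without TMM factors, depending on the library. With TMM factors this bound is higher in the fucoidan libraries, whose factors were 0.9157, 0.9443 and 0.6966. It is lower in the saline libraries, whose factors were 1.02 to 1.167. The beta-like Hbb-bh0 and Hbb-bh3, both annotated as unprocessed pseudogenes, had 1 and 0 counts. Of the globins of other tissues Cygb had 0, the muscle gene Mb 1 and the neuronal gene Ngb at most 3 in any library.

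Genes that switch globin loci on or off moved in both directions. Of 19 such regulators 18 were tested, and 5 rose and 1 fell, beside 9.11% and 4.65% of all genes tested, with a median log2 change of 0.18. The riser with the smallest p was Tal1, an erythroid helix-loop-helix factor, at 22.8 ± 7.12 CPM in the saline group (SD, n = 5) and 67.4 ± 35.4 CPM in the fucoidan group (SD, n = 3). Zfpm1, the partner of GATA factors known as FOG1, rose by log2 0.70. Gata1, the main GATA factor of red cells and platelets, Nfe2 and Sox6 rose by log2 1.47, 1.10 and 2.39. With no filter on low counts Tal1, Gata1 and Nfe2 were not called (adjusted p = 0.0755, 0.0719 and 0.0509 by edgeR), nor was Zfpm1 without scaling factors (0.137). Sox6, a repressor of embryonic globin, stood at only 0.683 CPM after saline and was not called without fucoidan replicate 3 (adjusted p = 0.0517 by edgeR). Bcl11a, a globin-silencing factor that B cells also express, fell from 149 ± 13.7 to 94.8 ± 6.96 CPM (log2 -0.65, SE 0.107, adjusted p = 0.00406 by edgeR). Scaled on leukocyte markers, Bcl11a stood at log2 -0.41 and was not called (adjusted p = 0.205 by edgeR). The sum used for that scaling includes the B cell markers, which mostly fell, so it cannot settle the change of Bcl11a. Klf1, the erythroid factor of the beta globin promoter, was too low to test, with 23 counts over the saline libraries and 15 over the fucoidan libraries.

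Haem, the prosthetic group of globin, is made by a chain of enzymes of which the red cell form of the first step, Alas2, stood out. Among 11 haem synthesis genes 4 rose, beside 9.11% of all genes tested, and the list's median log2 change was 0.35. Alas2 stood at 2252 ± 1028 CPM in the saline group (SD, n = 5) and at 11290 ± 5787 CPM in the fucoidan group (SD, n = 3), and rose by log2 2.33. Fech, the enzyme that puts iron into haem, rose by log2 2.27 and the mitochondrial iron importer Slc25a37 by log2 1.33, followed by Urod (1.20). The other enzymes, among them Alad, Cpox and Ppox, had log2 changes of 0.21, 0.30 and -0.15 and were not called.

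Genes that keep globin and haem in balance were mixed. Among 8 genes 3 rose and 1 fell, beside 9.11% and 4.65% of all genes tested, and the median log2 change was 0.16. Ube2o, a ubiquitin ligase that removes unpaired alpha globin and ribosomes from maturing red cells, measured 502.5 ± 205 CPM after saline and 2343 ± 1390 CPM after fucoidan, a rise of log2 2.22 (SE 0.351, adjusted p = 0.00396 by edgeR). The chaperone Hspa8 rose by log2 1.02, and Eif2ak1, the haem-regulated kinase that halts globin translation when haem is short, by log2 0.48. The phosphatase subunit Ppp1r15a fell, by log2 -0.91. Of these, Ube2o kept its call in every alternative. Hspa8 lost its call without saline replicate 1 or fucoidan replicate 1 or 2, and Eif2ak1 without saline replicate 4 or 5 or fucoidan replicate 3. Without scaling factors neither was called, and Hspa8 was not called with no filter. Ppp1r15a was not called with the replicate number as a block (adjusted p = 0.259 by edgeR) nor on leaving out any 1 of the fucoidan libraries or of saline replicates 3, 4 and 5 (0.0508 to 0.149). The groups overlapped for it, and scaling on leukocyte markers or using no filter also ended its call (0.154 and 0.110).

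Enzymes that guard haemoglobin or serve gas exchange rose in 8 of 10 cases, beside 9.11% of all genes tested. Their log2 changes were 0.07 to 2.28, with a median of 1.77. Bpgm makes the bisphosphoglycerate that lowers the oxygen affinity of haemoglobin, and went from 1305 ± 593.6 to 6354 ± 3689 CPM. Prdx2, the peroxiredoxin of red cells, rose by log2 1.88 and Gpx1, glutathione peroxidase, by log2 2.06. Blvrb, an erythrocyte reductase, rose by log2 1.66. The carbonic anhydrase Car2 went from 128 ± 63.7 to 492.5 ± 231 CPM, and was not called without fucoidan replicate 3 or with no filter (adjusted p = 0.0674 and 0.0804 by edgeR). Cyb5r3, the enzyme that returns oxidised haemoglobin to its working form, and Sod1 stood at log2 0.22 and 0.07, neither called.

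Genes that clear free haemoglobin and haem rose in 4 of 12 tested cases, beside 9.11% of all genes tested. The median log2 change was -0.08. Slc48a1, a haem transporter, rose by log2 1.95, and the ferritin chains Ftl1 and Fth1 by log2 1.15 and 1.04. Hmox1, the inducible haem oxygenase, went from 17.99 ± 3.55 to 31.1 ± 9.44 CPM with overlap between the groups. It was not called when saline replicate 3 or 4 or fucoidan replicate 1 or 2 was left out (adjusted p = 0.0516 to 0.132 by edgeR), nor without scaling factors (0.148). Hp, haptoglobin, and Cd163, the receptor that takes up its complex with haemoglobin, stood at log2 -0.41 and -0.25, neither called. Hpx, haemopexin, had 11 and 1 counts in the saline and fucoidan groups and was not tested. In the haem synthesis, gas exchange and clearance lists, edgeR, DESeq2 and limma-voom each called 0 genes lower, and 0 were lower at an unadjusted p under 0.05. Without scaling factors edgeR called 2 haem synthesis and 3 clearance genes lower, along with 3 of the regulators and 2 of the balance genes.

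Markers of T, B, natural killer cells and monocytes, the cells that a mononuclear preparation is meant to hold, were all present, beside those of red cells, platelets and neutrophils. Of 15 red cell markers other than globins, 14 rose, beside 9.11% of all genes tested. With a median of 2.31 they stood beside 2.07 for the adult globin genes. Their summed level, most of it from Epb41, was 1254 to 3113 CPM after saline and 5484 to 13213 CPM after fucoidan, highest in the replicates 3 of both groups. Tspo2, Aqp1 and Trim10 rose by log2 2.59, 1.72 and 2.37. With no filter on low counts 10 of the 15 were called, without the membrane skeleton genes Sptb, Epb42, Ank1 and Dmtn (adjusted p = 0.0519 to 0.0665 by edgeR), and Epb42 was also not called without fucoidan replicate 3 (0.0503). Of 7 markers of early erythroid and dividing cells, Kit, Epor and Gfi1b rose, from 3.15, 1.48 and 2.59 CPM to 6.60, 4.43 and 6.78 CPM, and 1 of them was called without fucoidan replicate 3. Tfrc, the transferrin receptor of haemoglobin-making precursors, stood at log2 -0.02, and the division genes Mki67 and Top2a at 0.63 and 0.34, none called.

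For the counts of cell markers that follow, the shares of all genes tested were 9.11% called higher and 4.65% called lower. All 12 tested platelet markers rose, with a median of 1.58. Their summed level was 2426 to 5174 CPM after saline and 7315 to 15641 CPM after fucoidan, without overlap. Pf4, Ppbp and Treml1 are examples, at log2 1.58, 1.58 and 1.61. With no filter on low counts 6 of the 12 were called. All 7 natural killer markers rose, among them Prf1, Klre1 and Klrk1 at log2 1.17, 1.27 and 1.15, with a summed level of 233 to 329.9 and 509 to 763 CPM. Klrb1c was not called on leaving out any 1 fucoidan library (adjusted p = 0.0655 to 0.0985 by edgeR), without scaling factors (0.131) or with no filter (0.147). Of 7 B cell markers 6 fell, such as Fcer2a, Cd22 and Cd79a at log2 -1.15, -0.87 and -0.71. Their summed levels were 3825 to 4939 CPM after saline and 2291 to 3303 CPM after fucoidan. On leaving out fucoidan replicate 3, saline replicate 3 or saline replicate 4, 3 of the 7 were called. Scaled on leukocyte markers 2 were called, but the sum used for that scaling includes these same 7 genes, so it cannot settle their change. Lck and Lat rose among 7 T cell markers, at log2 0.59 and 0.65, with summed levels of 535 to 640.5 and 752 to 1021 CPM. The T cell count was 4 without saline replicate 1, and 0 to 5 over the other alternatives. None of 7 monocyte or 7 neutrophil markers was called by edgeR, and 0 had an unadjusted p under 0.05. DESeq2 called 0 of either, and limma-voom 0 and 1. Without scaling factors edgeR called 2 monocyte and 3 neutrophil markers lower. Their lowest p belonged to Ccr2 and Cx3cr1 (log2 -0.53 and -0.31) and to S100a8 and S100a9 (-0.34 and -0.35). Without saline replicate 1, 1 neutrophil marker was called. The part of each of these cell types in the globin result was not tested.

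**Figure D5:**
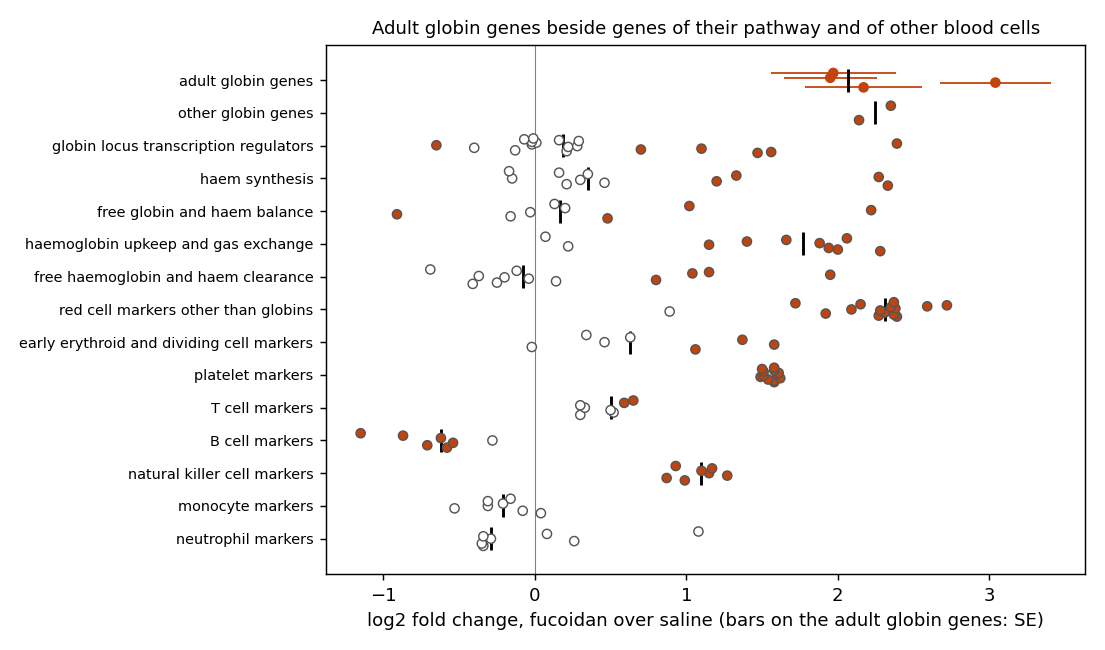
Log2 fold change of fucoidan over saline for the adult globin genes and for each tested gene of the other lists, 1 point per gene, filled where the adjusted p was under 0.05, with a vertical line at each list's median and bars of 1 SE on the adult globin genes. The adult globins lie at 1.95 to 3.04, in the range of the other red cell markers (0.89 to 2.72) apart from Hba-a2 and to the right of the platelet markers (1.49 to 1.62).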

How the data were processed

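Counts came from the authors' deposited table of raw counts per gene, with gene names, lengths and GRCm39 coordinates. Per the submitters' processing notes, reads were handled with cutadapt 4.0 and Trimmomatic 0.39 and aligned with HISAT2 2.2.1 to GRCm39 (mm39). Which program counted the reads, with which annotation release, strand setting and handling of multiple matches, is not stated in the sources used. Gene lengths are other values of the deposited table and served only for levels per kilobase.

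The low-count filter filterByExpr of edgeR 4.0.16, run in R 4.3.3, left 14723 genes. Libraries were scaled with TMM factors and tested with the robust quasi-likelihood test, with calls made below a Benjamini-Hochberg adjusted p of 0.05. The SE is the absolute log2 fold change over the square root of the F statistic. A ratio within a library and a share of counts were compared by exact two-sided permutation over all 56 arrangements (scipy 1.17.1). Of 6 planned ratios 4 were computed. The procedure was tested on simulated data in which every gene had the same dispersion. That run does not show how it behaves for genes as variable as the globins.

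Same-numbered libraries were checked for pairing on expression with group means removed. They correlated at 0.177, 0.233 and 0.144, and other pairs across groups at -0.261 to 0.144. No label says what a number shares. The main tests took the libraries as unpaired. The numbers served as pairs only in the replicate block and in the values given over same-numbered pairs. All libraries carry the same batch date in the labels. Alternatives were other scaling factors, no scaling, scaling on leukocyte markers, other filters, DESeq2 1.42.0, limma-voom (limma 3.58.1), the replicate block and leaving out each library.

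The members and the 14 gene lists were chosen with earlier results of these data known. A gene of the haem synthesis list is not reported here, and the list was summarised without it. From each list the 3 called genes with the smallest p were named, or 2 where none was called. Likeness is Pearson's r with the mean log2 CPM of the 4 genes, over protein-coding genes with at least 10 CPM, and the 5 closest were named. Other list genes named were chosen after their values were seen: Gata1, Nfe2, Sox6, Klf1, Urod, Alad, Cpox, Ppox, Ppp1r15a, Bpgm, Car2, Cyb5r3, Sod1, Hmox1, Hp, Cd163, Hpx, Tfrc, Mki67, Top2a, Klrb1c, Sptb, Epb42, Ank1, Dmtn, Epb41 and Slc4a1. Promoters are RefSeq's (GRCm38.p6) and matched all 4 genes.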

Additional observations from a re-analysis of the deposited data

Results flagged for a closer look

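Hbb-bt stood at 12457 CPM in saline replicate 3, far from the other 4 saline libraries, which lay between 2985 and 5698 CPM. The gap to the nearest of them was 0.714 of the range of the group. Of 17 saline groups of 5 values examined this way, this was the only one so marked, and chance marks about 1 group in 20. In the same library the summed red cell markers other than globins were 3113 CPM, against 1254 to 1877 CPM in the other saline libraries. Without saline replicate 3, Hbb-bt rose by log2 2.40 (adjusted p = 0.00199 by edgeR).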

How the results depend on the processing

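All 4 adult globin genes were higher after fucoidan in each alternative run. With no filter on low counts Hba-a1 (log2 2.15, adjusted p = 0.0554) and Hbb-bt (1.95, 0.0995) were no longer called by edgeR, though both summed pairs were (0.0434 and 0.0398). Leaving out 1 library gave log2 1.58 to 2.49 for Hba-a1, 2.37 to 3.41 for Hba-a2, 1.55 to 2.15 for Hbb-bs and 1.49 to 2.40 for Hbb-bt. The cause was not tested. With the replicate number as a block the log2 changes were 1.88, 2.79, 1.71 and 1.64, all called, and no call of a member changed. Without scaling factors the median of all genes shifted by -0.38 and the 4 genes stood at 1.73, 2.55, 1.53 and 1.55; scaled on leukocyte markers it shifted by 0.24 and they stood at 2.49, 3.33, 2.25 and 2.26.

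The number of all genes called was 2025, 5563 without scaling factors (810 higher, 4753 lower), 1561 with the block, and 928 to 2224 when 1 library was left out. Falls numbered 76 when scaled on leukocyte markers. The 4-gene share differed by 11.9 percentage points, and by 8.46 to 13.7 when 1 library was left out. The log2 ratio of Hbb-bs to Hbb-bt differed by -0.10, and by 0.07 over the 3 same-numbered pairs (the replicate block, a value with no test), and by -0.23 to -0.02 when 1 library was left out. The ratio of globins to other red cell markers differed by -0.15 to 0.03 when 1 library was left out, the positive value being without saline replicate 1. Depth did not limit the adult globin genes, whose counts were 24229 or more in every library.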
